A study of Mus musculus with 194 samples.

Results

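The cytokines and chemokines through which activated CD8+ T-cells act on other cells were followed in single cells of known pedigree. They were the interferon Ifng, the tumour necrosis factor family members Tnf and Lta, the growth factors Il2 and Csf2, and the chemokines Ccl3, Ccl4, Ccl5 and Xcl1, which makes 9 of the 23393 gene names in the expression table. They were taken by name, as products that effector CD8+ T-cells are known to secrete, and not by their measured values. All 9 names were in the table.

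Primary CD8+ T-cells, purified from C57BL/6J spleens, were activated for 30 h with plate-bound anti-CD3 at 5 μg/mL and soluble anti-CD28 at 2 μg/mL, and were then grown in a microfluidic array of traps in medium with 100 U/mL IL2. L1210, a mouse lymphocytic leukemia line of DBA origin (subline 212), grew in the same device with neither activation nor added IL2. Single cells were washed out of the traps with their pedigree and their hours since division on record, and were lysed and sequenced with Smart-Seq2. Neither the labels nor the methods describe a restimulation, so the cells had left the anti-CD3 plate when they were lysed. The T-cells came from several mice of mixed gender, whose ages spanned a range of weeks. The labels tie no cell to a mouse, a culture or a device run. L1210 is a single line.

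Single cells with at least 1000 genes above 0 TPM (the transcript abundance per length, scaled to the same total in every library) were kept, 97 of CD8 and 81 of L1210, and 9 CD8 and 7 L1210 libraries were left out. The 97 CD8 cells formed 34 lineages, the progeny of 1 founder each. There were 16 lineages with 4 cells, 4 with 3, 7 with 2 and 7 with 1, and the cells made 43 pairs of sisters and 72 of cousins, with 4541 pairs from different lineages. The 81 L1210 cells formed 26 lineages with 38 sister, 62 cousin and 3140 unrelated pairs. Cells had between 2639 and 10905 detected genes (median 6862) in CD8 and between 1610 and 10454 (median 8402) in L1210. TPM keep no read counts, so the depth behind each value is unknown and the number of detected genes stands in for it below. The lineage was the unit of the comparison between cell types and of the correlations, and their p-values measure the spread between lineages and not between mice. The main test of likeness among relatives reassigned single cells, so its p-values measure the spread neither between lineages nor between mice.

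T-cell receptor engagement switches these genes on through NFAT, AP-1 and NF-kB, and most of their transcripts are short-lived, so that in T-cell blasts they are low between rounds of stimulation. IFN-γ, encoded by Ifng, activates macrophages and raises antigen presentation, while TNF and lymphotoxin-α, the product of Lta, signal inflammation and death through TNF receptors. IL-2 is the growth factor of T-cells and GM-CSF, encoded by Csf2, acts on myeloid cells. CCL3, CCL4 and CCL5 attract T-cells and myeloid cells, and XCL1 attracts the cross-presenting dendritic cells that carry XCR1.

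In the genome the genes lie in a few neighbourhoods (GRCm38 coordinates). Lta (chr17:35203165-35205351, minus strand) and Tnf (chr17:35199381-35202007, minus strand) are neighbours with 1157 bases between them, and 3060 bases separate Tnf from Ltb, which encodes the membrane anchor of lymphotoxin. Ccl5 (chr11:83525778-83530518, minus), Ccl3 (chr11:83647844-83649355, minus) and Ccl4 (chr11:83662584-83664683, plus) share a chemokine cluster in which Ccl3 and Ccl4 lie 13228 bases apart and point away from each other. Csf2 (chr11:54247271-54249667, minus) is elsewhere on the same chromosome. Ifng (chr10:118441046-118445892, plus), Il2 (chr3:37120523-37125959, minus) and Xcl1 (chr1:164931644-164935527, minus) each lie on a chromosome of their own.

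RefSeq start sites (GRCm38.p6) gave a promoter window of 250 bases for 7 of the 9 genes, the exceptions being Ccl4 and Ccl5. The windows of 4 genes that span the range of the data are given 5′ to 3′ on the gene's own strand. Lta was read in nearly every T-cell, its neighbour Tnf in most, Xcl1 in a minority, and Il2 in none. Capitals mark the letters GGAAA on either strand (written TTTCC on the other), the core that NFAT proteins read, GGGNNNNNCC on either strand, the outline of an NF-kB site, and TATAAA, the TATA box, on either strand. The Lta capitals in GGGCCTGACCC hold a pair of overlapping GGGNNNNNCC matches. The windows are Lta at chr17:35205352-35205601, Tnf at chr17:35202008-35202257, Xcl1 at chr1:164935523-164935772 and Il2 at chr3:37125955-37126204, all read on the minus strand.
Lta: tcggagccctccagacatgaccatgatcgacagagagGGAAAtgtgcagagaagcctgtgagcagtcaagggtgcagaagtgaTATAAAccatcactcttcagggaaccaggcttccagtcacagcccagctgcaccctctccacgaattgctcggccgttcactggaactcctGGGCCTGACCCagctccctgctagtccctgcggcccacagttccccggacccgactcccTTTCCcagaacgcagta
Tnf: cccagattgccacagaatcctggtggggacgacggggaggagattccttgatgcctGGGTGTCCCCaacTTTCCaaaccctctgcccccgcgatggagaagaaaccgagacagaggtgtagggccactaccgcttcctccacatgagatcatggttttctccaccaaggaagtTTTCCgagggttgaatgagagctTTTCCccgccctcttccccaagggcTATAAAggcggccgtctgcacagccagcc
Xcl1: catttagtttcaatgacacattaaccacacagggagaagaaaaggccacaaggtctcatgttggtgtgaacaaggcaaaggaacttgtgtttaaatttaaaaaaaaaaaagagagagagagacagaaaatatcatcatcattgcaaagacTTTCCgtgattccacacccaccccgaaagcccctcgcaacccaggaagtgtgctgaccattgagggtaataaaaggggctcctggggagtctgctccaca
Il2: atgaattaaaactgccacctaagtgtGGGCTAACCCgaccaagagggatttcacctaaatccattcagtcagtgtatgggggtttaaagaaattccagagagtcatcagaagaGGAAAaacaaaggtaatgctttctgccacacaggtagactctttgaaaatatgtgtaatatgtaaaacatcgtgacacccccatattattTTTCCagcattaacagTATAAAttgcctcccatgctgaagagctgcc

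GGAAA was present in all 7 windows, against 55.6% of the 32851 mouse promoter windows of the same length. It matched 3 times in Tnf, 2 times in each of Lta, Il2, Csf2 and Ccl3, and once in Ifng and in Xcl1. A TATA box stood 23 bases before the start in Tnf, 24 in Ifng and 25 in Il2, and 161 in Lta, and TATAAA was in 12.4% of all windows. The NF-kB outline, found in 45.8% of all windows, was in those of Tnf, Lta and Il2. The AP-1 letters TGANTCA, found in 6.75% of all windows, were in none of the 7. Il2, read in no cell, thus had the same 3 kinds of match in its window as Tnf, read in most. These matches describe the letters and not occupied sites.

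The T-cell label was checked against marker genes. Cd3e, a subunit of the T-cell receptor complex, was above 0 in 97 of 97 CD8 cells and in no L1210 cell, and Cd8a was above 0 in 94 CD8 cells. Pax5, Igll1 and Vpreb1 (B-lineage), Lyz2, Cd14, Emr1 and Fcgr3 (myeloid), Ncr1 and Klrb1b (NK) and Cd40lg, a helper T-cell gene, were at 0 in all 97 CD8 cells. Other markers of these types were above 0 in some CD8 cells. Of the myeloid list Cd68 was above 0 in 12 cells (up to 82.8 TPM), Itgam in 10 (up to 1.34 TPM), Itgax in 3 and Csf1r in 2. Of the B-cell list the receptor subunits Cd79b and Cd79a were in 47 and 10 cells (up to 282.6 and 27.9 TPM), Blnk in 2 and Ms4a1 in 1. Of the NK list Eomes, which CD8 cells also express, was in 47, Klra8 in 4, Tyrobp in 2 and Fcer1g and Klrb1c in 1 each, and of the helper list Foxp3 was in 6 and Cd4 in 2. L1210 carried the B-lineage markers Pax5, Igll1 and Vpreb1, while Ms4a1 of the B-cell list was above 0 in 1 of 81 L1210 cells. Of the T-cell markers Thy1 was above 0 in 46 L1210 cells (up to 91.9 TPM), Cd8b1 in 23, Cd2 in 22, Lck in 16, Cd8a in 10, Cd3d in 8 and Cd247 in 7. Of the myeloid list Cd14 was in 41, Lyz2 in 36, Cd68 in 33 and Itgam in 6. The other myeloid markers and those of the NK and helper lists were in fewer.

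In the CD8 cells 1 cytokine, Lta, was read in nearly all cells, Tnf in most, Xcl1 in a minority, and the others in few cells or none. Share means the percentage of cells above 0 TPM, and its interval is the exact 95% binomial one, which covers counting error only and treats sister cells as independent. TPM are scaled for transcript length but for no other difference between genes, so levels set side by side across genes are approximate.

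Lta was above 0 in 94 of 97 CD8 cells (96.9%, interval 91.2 to 99.4%), with a lowest value of 0, a median of 312 TPM and a highest value of 1712 TPM in cell CD8_99. The middle of the distribution, from the first to the third quartile, ran from 133 to 696 TPM, so that the level, not the presence, of Lta distinguished the cells. Tnf was above 0 in 67 cells (69.1%, 58.9 to 78.1%), with a median of 20.7 TPM and a highest value of 282 TPM in CD8_27. Every one of the 67 Tnf cells also had Lta.

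Ifng, a hallmark cytokine of cytotoxic T-cells, was above 0 in 9 cells (9.28%, 4.33 to 16.9%). Its values were 1.23, 6.32, 15.6, 19.02, 19.1, 24.4, 33.4, 35.2 and 41.4 TPM in cells CD8_22, CD8_27, CD8_21, CD8_102, CD8_29, CD8_99, CD8_53, CD8_77 and CD8_31. The highest of these was below the lower quartile of Lta. Csf2 was above 0 in 5 cells (5.15%, 1.69 to 11.6%), at 2.21, 2.78, 5.56, 11.8 and 35.9 TPM in CD8_92, CD8_19, CD8_18, CD8_85 and CD8_94. Il2 was at 0 in all 97 cells, which allows a share of up to 3.09% by the limit of 3 cells that a count of 0 allows, while the culture medium supplied IL2 protein.

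Among the chemokines Xcl1 was the most widespread, above 0 in 38 cells (39.2%, 29.4 to 49.6%), with a median of 0 and a highest value of 511 TPM in CD8_28. Ccl5 was above 0 in 21 cells (21.6%, 13.9 to 31.2%) with a highest value of 291 TPM in CD8_75. Ccl4 was above 0 in 15 cells (15.5%, 8.92 to 24.2%) with a highest value of 383 TPM in CD8_94. The same cell had the highest Ccl3, a gene above 0 in 7 cells (7.22%, 2.95 to 14.3%), at 4.6, 9.43, 15.9, 18.8, 35.2, 101.9 and 895 TPM in CD8_13, CD8_93, CD8_85, CD8_102, CD8_21, CD8_29 and CD8_94. A few cells thus carried most of the Ccl3 and Ccl4 signal, whereas Lta was spread over the population.

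**Figure D1:**
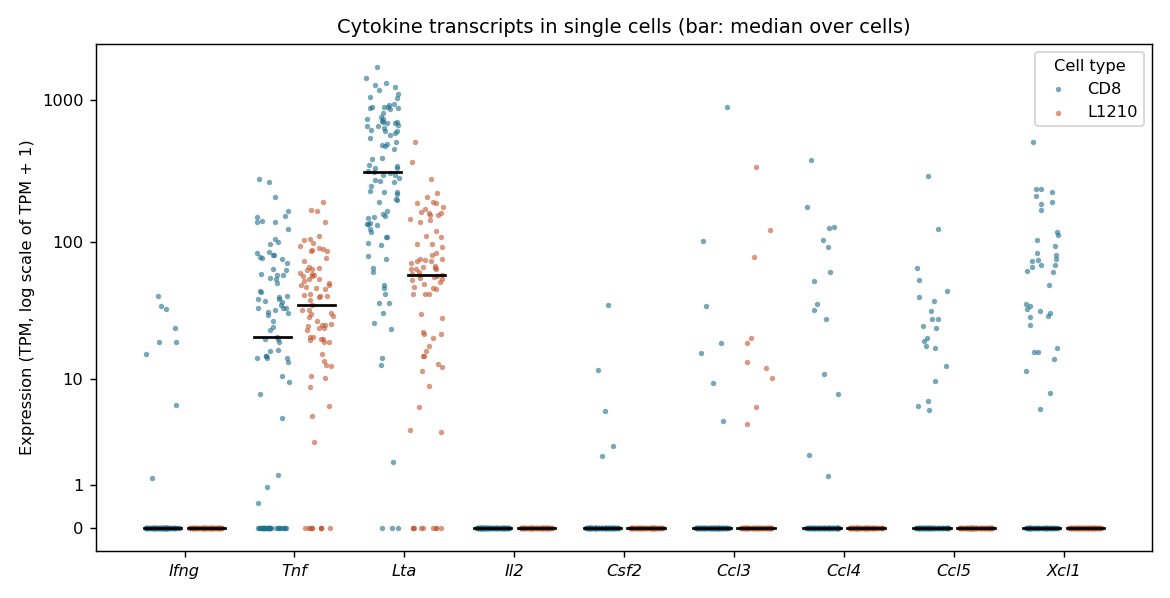
Expression of each of the 9 cytokines (vertical axis, TPM on a log scale of TPM+1) in every kept cell, with one point per cell for CD8 (97 cells) and L1210 (81 cells) and a bar at the median over cells. In CD8 Lta fills the upper range, Tnf is split between 0 and higher values, and Ifng, Csf2, Ccl3 and Ccl4 are at 0 in most cells. In L1210 Lta and Tnf are each above 0 in 72 cells, with medians of 58.3 and 35.6 TPM.

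Averaged first within lineages, the order of the levels in CD8 was Lta, Tnf, Xcl1, Ccl5, Ccl4, Ifng, Ccl3, Csf2 and Il2. Mean ln(TPM+1) over the 34 lineages was 5.42 ± 1.18 (SD, n = 34) for Lta and 2.65 ± 1.52 for Tnf, and Lta was higher than Tnf in 34 of 34 lineages. Xcl1 followed at 1.51 ± 1.57, and Tnf was higher than Xcl1 in 24 lineages and lower in 9. Between Xcl1 and Ccl5 (0.75 ± 1.21) the difference of 0.76 ± 1.62 was within its spread. The remaining neighbours, Ccl5 and Ccl4 (0.49 ± 0.99), Ccl4 and Ifng (0.27 ± 0.73), Ifng and Ccl3 (0.22 ± 0.59) and Ccl3 and Csf2 (0.11 ± 0.34), likewise differed by less than the spread of their difference over lineages. The step from Lta to Tnf, 2.77 ± 1.32, was the only one between neighbours that exceeded its SD. No test was made on this order.

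L1210 cells read 3 of the 9 genes. Tnf was above 0 in 72 of 81 cells (88.9%) with a median of 35.6 and a highest value of 194 TPM, and Lta in 72 cells (88.9%) with a median of 58.3 and a highest value of 512 TPM. Ccl3 was above 0 in 10 L1210 cells (12.3%) from 7 lineages. Ifng, Il2, Csf2, Ccl4, Ccl5 and Xcl1 were at 0 in all 81, which allows a share of up to 3.70% each by the same limit of 3 cells. So Ccl4, Ccl5 and Xcl1, present in some T-cells, were at 0 in every cell of a line grown in the same device and sequenced in the same way. That line had neither activation nor added IL2.

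Cells differed in how many of the 9 genes they carried. None was above 0 in 1 CD8 cell, 1 gene in 16 cells, 2 in 39, 3 in 20, 4 in 11, 5 in 5, 6 in 2 and 7 in 3. The most common pair was Lta with Tnf. The 3 cells with 7 genes, CD8_21, CD8_29 and CD8_102, all had Ifng, Tnf, Lta, Ccl3, Ccl4, Ccl5 and Xcl1, and belonged to 3 different lineages. Detected genes moved with this count, with a median of 5125 in cells with 1 of the genes and 9788 in cells with 7, and their part in the count was not tested.

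Ifng was read in cells that also carried Xcl1, and no test was made on these counts of shared cells. All 9 Ifng cells had Xcl1, which was above 0 in 39.2% of all cells. All 9 had Lta and Gzmb, the gene for the cytotoxic protease granzyme B, but these were above 0 in 96.9% and 89.7% of all cells. Of the same 9, Tnf was above 0 in 8, Ccl5 in 6, Ccl4 in 4, Ccl3 in 3 and Csf2 in 0. Ccl3 and Ccl4 went together, since 6 of 7 Ccl3 cells had Ccl4 against 15.5% of all cells, with a Spearman rho of 0.60 over the 97 cells and 0.56 over the 34 lineage means. Ccl5 and Xcl1 were both above 0 in 14 of the 21 Ccl5 cells (rho 0.33). Of the 5 Csf2 cells 3 had Ccl4, 2 Ccl3, 2 Xcl1 and 1 Ccl5, the last 2 counts being close to the shares of all cells, and Tnf was in 11 of the 15 Ccl4 cells against 69.1% of all cells. All 15 Ccl4 cells had Gzmb, in 87 of all 97, and all 15 had Tbx21, the T-bet transcription factor that drives effector genes, which was above 0 in 73 of 97 cells.

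Tnf and Lta varied together more loosely, with rho 0.39 over the CD8 cells and 0.53 over the lineages, and 0.44 and 0.57 in L1210. Tnf had little relation to Ccl4 (rho -0.09) or Xcl1 (rho 0.06) across cells, and Lta little to Xcl1 (rho 0.11). These correlations are descriptions over single-cell libraries that differed in the number of detected genes and in part came from shared lineages. Spearman rho with the number of detected genes was 0.50 for Tnf, 0.44 for Lta, 0.38 for Ccl5, 0.36 for Ifng, 0.26 for Xcl1, 0.23 for Ccl3, 0.18 for Ccl4 and 0.09 for Csf2.

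**Figure D2:**
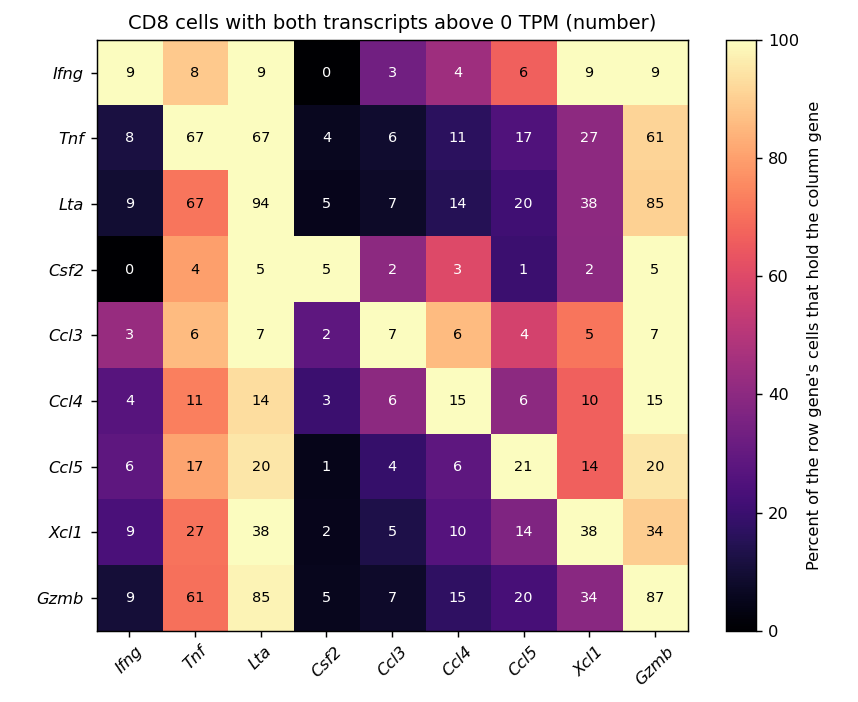
Co-detection of the cytokines and Gzmb in the 97 CD8 cells: the number in each square counts cells with both genes above 0 TPM, the diagonal counts cells with the gene, and the colour gives the percentage of the row gene's cells that also have the column gene. In the Ifng row all 9 cells have Xcl1, Lta and Gzmb and 0 have Csf2.

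For each gene that passed the low-value filter the 3 genes whose levels ranked most like its own over the 97 CD8 cells were read off, out of 9985. For Ccl4 they were Nr4a1, a nuclear receptor induced by T-cell receptor signals (rho 0.60), the phosphatase subunit Ppp2r3a (0.56) and Gp49a (0.49), and Nr4a1 was above 0 in 9 of the 15 Ccl4 cells and in 13 of all 97. For Xcl1 they were D8Ertd82e (0.57), Eomes, a T-box factor of CD8 and NK cells (0.55), and Samd3 (0.52). Samd3 (0.55) also led for Ccl5, followed by pleckstrin, Plek (0.51), and Utf1 (0.49).

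For Tnf the list was the channel Aqp9 (0.50), the early response gene Ier3 (0.49) and Id2, an inhibitor of DNA-binding factors (0.48). For Lta it was the spermidine synthase Srm (0.55), the glycolytic enzyme Pgam1 (0.53) and the translation helicase Eif4a1 (0.53), each read in nearly all cells. The median rho over all genes was 0.14 for Tnf, 0.12 for Lta, 0.05 for Ccl4, 0.10 for Ccl5 and 0.06 for Xcl1. The number of detected genes itself correlated with these neighbours, at 0.52 for Aqp9, 0.41 for Eomes, 0.38 for Nr4a1 and 0.33 for Srm.

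Eomes sits in both the regulator list and the NK list, and it was above 0 in 29 of the 38 Xcl1 cells, against 47 of all 97. The summed level of the 7 NK markers ran from 0 to 89.3 TPM (median 15.7) in Xcl1 cells and from 0 to 62.4 (median 0) in the others, with a rho of 0.50 to Xcl1 and 0.44 to Ccl5. Of the other markers in that sum Klra8 was read in 4 cells, Tyrobp in 2, Klrb1c and Fcer1g in 1 each, and Ncr1 and Klrb1b in none. Cd3e was above 0 in all 38 Xcl1 cells and Cd8a in 37. The summed B-cell markers had a rho of 0.07 to Xcl1 and the myeloid markers 0.05.

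Whether a cell's relatives resembled it in cytokine expression was the question that the pedigrees allow. For each gene the absolute difference in ln(TPM+1) was averaged over the sister and cousin pairs and over unrelated pairs, and the pedigree positions were reassigned among the cells 100000 times, two-sided, with Benjamini-Hochberg adjustment over 9985 genes. Of the 9 cytokines, 5 passed the filter (ln(TPM+1) over 1 in more than 10% of cells) and could be tested, and 2 were closer among relatives, namely Lta and Xcl1. The background was 6.76% of all genes called, 675 of 9985, with a median change of -7.77% and no gene less alike in relatives.

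Lta differed by 1.11 ln units between relatives and by 1.60 between unrelated cells, a change of -30.8% (permutation p = 0.00012, adjusted p = 0.0055). The lineage of CD8_25 to CD8_28 held Lta at 1102, 1048, 887 and 1423 TPM, and that of CD8_83 to CD8_86 at 49.7, 0, 96.2 and 26.5 TPM. These were the lineages with the highest and the lowest mean, and no cell of one came within the range of the other. Lta in relatives was closer than in unrelated cells in 22 of 27 lineages.

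Over pairs, Lta had a rho of 0.70 between sisters, 0.65 between cousins and -0.03 between unrelated cells. Lta was read in nearly every cell, and with detection alone in place of the level the change was 30.2% (adjusted p = 0.94, 0.801% of genes called). With values taken as residuals on the number of detected genes the change was -15.1% (adjusted p = 0.20), and Lta was then no longer called, against 6.41% of genes called on that scale.

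Xcl1 differed by 1.499 ln units between relatives and by 2.15 between unrelated cells, a change of -30.4% (permutation p = 0.00106, adjusted p = 0.024). Of the sister pairs 9 had Xcl1 in both cells, 17 in one and 17 in neither, and of the cousin pairs 18 had it in both, 21 in one and 33 in neither. Among pairs with any Xcl1, both cells had it in 34.6% of sister, 46.2% of cousin and 23.5% of unrelated pairs. Of the 27 lineages with at least 2 cells, 4 had Xcl1 in all cells, 14 in some and 9 in none.

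Xcl1 read 225, 169.6, 69 and 511 TPM in CD8_25 to CD8_28 and 192, 25.5, 62.7 and 66.4 TPM in CD8_1 to CD8_4. Xcl1 was above 0 in all 4 cells of both, and the call rested on each. Without the first of them the change was -23.8% (adjusted p = 0.11) and without the second -26.4% (adjusted p = 0.069). When lineages rather than cells were permuted, by sign flips, Xcl1 was closer among relatives in 17 of 27 lineages (adjusted p = 0.51) and Lta stayed called (adjusted p = 0.029), against 2.16% of genes.

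Tnf differed by 1.70 ln units between relatives and 2.16 between unrelated cells, a change of -21.2% that missed the threshold (permutation p = 0.0071, adjusted p = 0.078). It passed with a pseudocount of 10 TPM (-26.2%, adjusted p = 0.012, 7.35% of genes called), with the Mann-Whitney U-test over pairs (adjusted p = 0.030, 8.81% of genes called), which treats pairs as independent, and without the lineage of CD8_65 to CD8_68 (adjusted p = 0.041). In that lineage the sisters CD8_65 and CD8_66 had 81.5 and 0 TPM and the sisters CD8_67 and CD8_68 had 0 and 149.8 TPM. By contrast CD8_16 and CD8_18 had 266 and 165 TPM, the highest lineage mean, and CD8_5 to CD8_7 had 0, 0 and 0. Tnf was above 0 in all cells of 12 of the 27 lineages, in some cells of 14 and in none of 1.

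Ccl5 (-15.9%, adjusted p = 0.39) and Ccl4 (-11.2%, adjusted p = 0.63) did not pass. The Ccl4 value rested on the lineage of CD8_92, CD8_93 and CD8_94, which had 10.95, 128 and 383 TPM, and without it the change was 6.49%. That lineage also held the highest Ccl3, 0, 9.43 and 895 TPM in the same order, and Csf2 at 2.21, 0 and 35.9 TPM. All 3 cells of that lineage shared the presence of Ccl4, at levels that spanned a wide range. Gzmb, measured in the same cells, differed by -55.6% between relatives and unrelated cells (adjusted p = 0.0016).

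Ifng, Csf2, Ccl3 and Il2 were too rare for the filter. The 9 Ifng cells came from 6 of 34 lineages. In 3 of those lineages a pair of cells had it: CD8_21 and CD8_22 at 15.6 and 1.23 TPM, CD8_29 and CD8_31 at 19.1 and 41.4 TPM, and CD8_99 and CD8_102 at 24.4 and 19.02 TPM. Of the sister pairs 2 had Ifng in both cells, 4 in one and 37 in neither. Without the filter the change was -7.26% for Ifng, -25.9% for Csf2 and 1.93% for Ccl3 (adjusted p = 0.98, 0.69 and 1.00, with 3.33% of 16338 genes called).

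**Figure D3:**
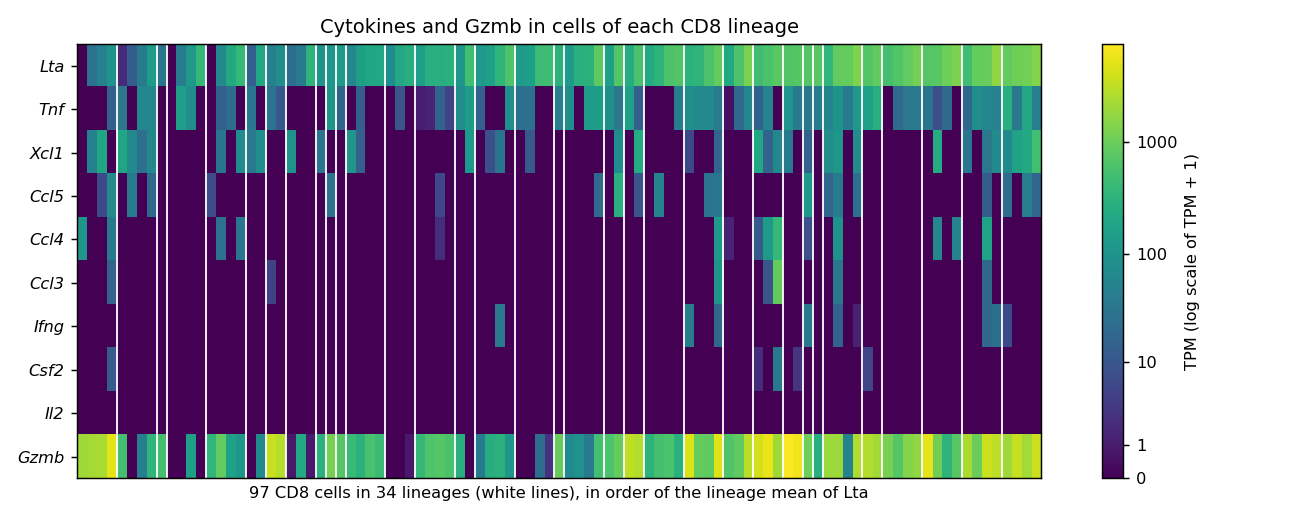
Level of the cytokines and Gzmb (rows; colour, TPM on a log scale of TPM+1) in each of the 97 CD8 cells (columns), with white lines between the 34 lineages, which are ordered by their mean Lta. On the ln(TPM+1) scale Lta runs from the lineage of CD8_83 to CD8_86 (mean 2.95) to that of CD8_25 to CD8_28 (mean 7.003), and Ifng, Csf2 and Ccl3 appear in few cells.

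**Figure D4:**
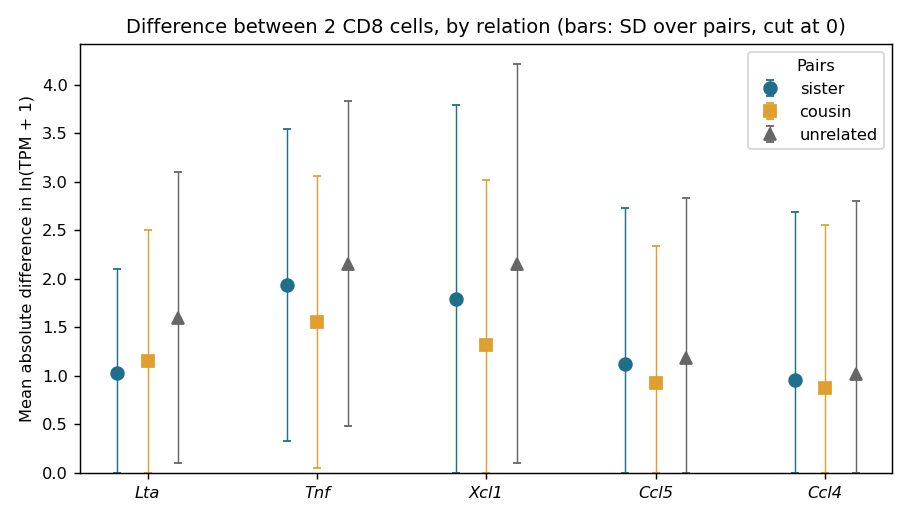
Mean absolute difference in ln(TPM+1) between the cells of sister (43), cousin (72) and unrelated (4541) CD8 pairs for the 5 tested cytokines, with bars of ± 1 SD over pairs cut at 0. Lta lies at 1.03, 1.15 and 1.60 and Tnf at 1.94, 1.56 and 2.16, with bars that overlap across the kinds of pair.

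Sisters share a more recent common ancestor than cousins, so closer sisters would be one pattern that a pedigree can show. In none of the 5 tested cytokines did the difference pass, with 100000 sign flips over the 20 lineages that held both kinds of pair, against a background of 0.02% (2 of 9985 genes, Ndufb7 and Polr2j, both closer in cousins). At an unadjusted p under 0.05 there were 524 genes. Tnf sisters differed by 0.57 ln units more than Tnf cousins (permutation p = 0.0145, adjusted p = 0.69), as in CD8_44 and CD8_45, sisters with 141 and 0 TPM. Lta sisters were closer than Lta cousins by a difference of -0.16 (adjusted p = 1.00). The values were 0.31 for Xcl1, 0.20 for Ccl4 and 0.18 for Ccl5, each with cousins nominally closer.

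The cytokine levels were next set beside Gzmb, as a measure of cytotoxic differentiation, over the 34 lineage means. None of the 5 tested cytokines passed (100000 permutations, Benjamini-Hochberg over 9984 genes), against 4.49% of all genes called in either direction (448 genes, 4.35% positive and 0.14% negative), and 1884 genes had an unadjusted p under 0.05. Lta came closest with a Spearman rho of 0.45 (p = 0.0073, adjusted p = 0.096) and a Pearson r of 0.41 (p = 0.016, adjusted p = 0.15, 3.93% of genes called). Without the 2 lineages farthest from the median Gzmb its rho was 0.47 and its r 0.49 (p = 0.0075 and p = 0.0048). The relation was positive in each of these forms, and its adjusted p missed the threshold in each.

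Tnf had a rho of 0.44 (p = 0.010, adjusted p = 0.11) and an r of 0.39 (p = 0.024, adjusted p = 0.18) with Gzmb, and 0.39 and 0.31 without the 2 farthest lineages. Ccl4 followed with rho 0.37 and r 0.34 (adjusted p = 0.21 and 0.25), Ccl5 with 0.26 and 0.28 (adjusted p = 0.44 and 0.38) and Xcl1 with 0.11 and 0.11 (adjusted p = 0.79 and 0.80), the last with the smallest values of the 5. Without the 2 farthest lineages r was 0.33 for Ccl4, 0.24 for Ccl5 and -0.0078 for Xcl1. The median rho over all genes was 0.12, and Gzmb itself had a rho of 0.45 with the number of detected genes over cells. As residuals on detected genes, Lta had a rho of 0.31 (adjusted p = 0.37), Tnf 0.19, Ccl4 0.06, Ccl5 -0.07 and Xcl1 -0.08, and 1.26% of genes were called.

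Single lineages moved these values. The 4 cells CD8_83 to CD8_86 combined the lowest Lta lineage mean with Gzmb at 2447, 2102, 5274 and 2219 TPM, and without them Lta reached a rho of 0.56 (adjusted p = 0.031) and Tnf 0.52 (adjusted p = 0.048). Lta was also called without CD8_13 and CD8_15, and Tnf without CD8_36 and CD8_42. In CD8_9, CD8_10 and CD8_11 Gzmb was at 0, 0.84 and 0 TPM and Lta at 219, 276 and 75.4 TPM, below the CD8 median of 312 TPM. CD8_13 and CD8_15 too had high Gzmb, at 3501 and 2764 TPM, beside little Lta, at 47.1 and 80.2 TPM. In CD8_59 to CD8_62 Gzmb was at 23.6, 2.56, 0 and 0 TPM and Lta at 457, 476, 135 and 154 TPM. High Gzmb was thus read in some lineages with little Lta, and cells of lineages with little Gzmb had Lta on both sides of its median. Other lineages were high in both genes. CD8_14 and CD8_19, the lineage with the highest Gzmb mean, had Gzmb at 7488 and 6170.5 TPM and Lta at 658 and 704 TPM.

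Without the low-value filter Csf2 was called, with a rho of 0.51 to Gzmb (p = 0.00055, adjusted p = 0.041), against 1.77% of the 16337 genes then tested. That rho rests on 5 cells in 4 lineages, in which Gzmb was at 2078 TPM in CD8_94, 2704.5 in CD8_18, 4221 in CD8_92, 5274 in CD8_85 and 6170.5 in CD8_19. Ccl3 had a rho of 0.48 (adjusted p = 0.097) and Ifng 0.21 (adjusted p = 0.68).

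**Figure D5:**
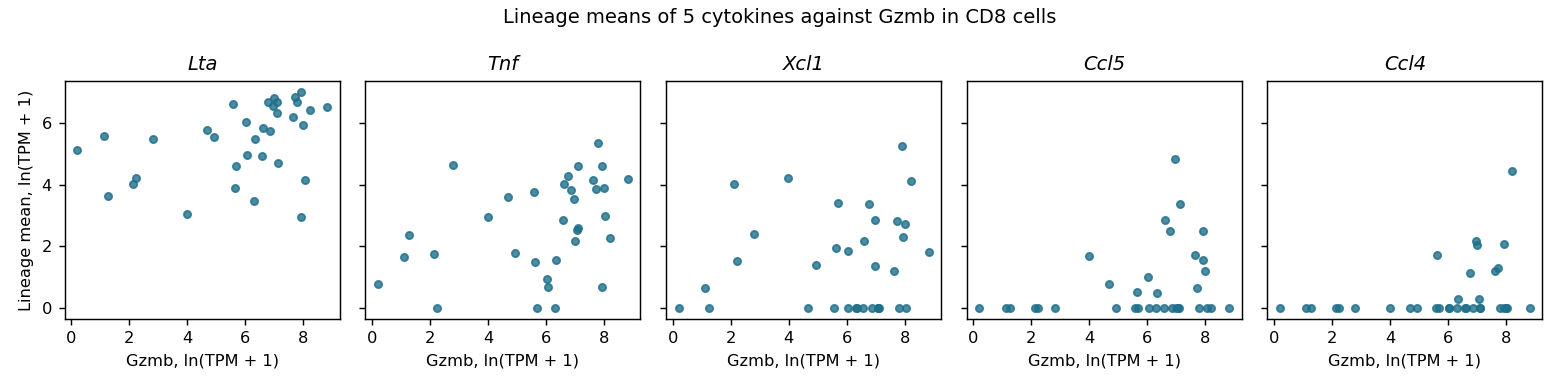
Lineage means of ln(TPM+1) of each tested cytokine (vertical axis) against that of Gzmb (horizontal axis), with one point per CD8 lineage (34). Lta (rho 0.45) and Tnf (rho 0.44) lean upward, and Xcl1 (rho 0.11) is scattered.

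Imaging recorded the time since the last division for 94 CD8 cells (0.5 to 9.475 h, median 4.41 h). Over the 31 lineages with a time, none of the 5 tested cytokines passed, against a background of 0% (0 of 9985 genes by Spearman permutation with adjustment, 1036 genes at an unadjusted p under 0.05, and 16 genes or 0.16% called by Pearson). Spearman rho was -0.15 for Tnf, 0.09 for Lta, -0.03 for Ccl4, -0.09 for Ccl5 and -0.12 for Xcl1 (permutation adjusted p between 0.83 and 0.97). Pearson r was -0.16, -0.02, 0.06, -0.15 and -0.11 in the same order, with p between 0.39 and 0.92. Without the 2 lineages farthest from the median time r was -0.04, 0.27, 0.16, -0.18 and -0.25 (permutation adjusted p between 0.73 and 0.97). In L1210 the rho was -0.03 for Tnf, -0.19 for Lta and -0.24 for Ccl3, and none of 3 tested cytokines was called (0% of 10523 genes, 528 at an unadjusted p under 0.05).

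The same pedigree test in L1210 had 3 testable cytokines, Tnf, Lta and Ccl3, and called none of them, against 3.3% of 10523 genes (347 genes, 2021 at an unadjusted p under 0.05). Lta changed by -24.0% between relatives and unrelated cells (permutation p = 0.0031, adjusted p = 0.070), Ccl3 by -24.8% (adjusted p = 0.32) and Tnf by -9.33% (adjusted p = 0.48). Of the 10 Ccl3 cells 3 were in 1 lineage, L1210_4, L1210_16 and L1210_27 with 341, 78.6 and 123 TPM, whose other cell L1210_38 had 0. The same 4 cells had the lowest Lta of the L1210 lineages, at 6.05, 3.89, 0 and 15.1 TPM. Without L1210_15 the change of Lta was -24.2% (adjusted p = 0.054). The difference between CD8 and L1210 in likeness was not tested.

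Between the cell types, lineage means of log2(TPM+1) were compared by limma over 11360 genes. Lta was higher in CD8, at 7.82 ± 1.71 (SD, n = 34 lineages) against 5.31 ± 1.70 (n = 26), a log2 difference of 2.51 ± 0.42 (SE, limma adjusted p = 4.6e-07). Tnf was at 3.83 ± 2.19 in CD8 and 4.78 ± 1.47 in L1210, a difference of -0.96 ± 0.47 that missed the threshold (limma p = 0.047, adjusted p = 0.071). Lta therefore passed and its neighbour Tnf did not. Ccl3 was at 0.31 and 0.51 (difference -0.19, adjusted p = 0.50).

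Xcl1 (2.18 ± 2.27), Ccl5 (1.08 ± 1.74) and Ccl4 (0.71 ± 1.42) were listed at 0 in all L1210 cells and also passed, with limma adjusted p of 7.5e-06, 0.0026 and 0.016. These 3 entered the test through the CD8 cells alone, so their direction was fixed by the filter. Of all genes tested 13.5% were called higher and 50.1% lower in CD8, and the median difference over all genes was -0.59, while CD8 cells had the lower median of detected genes. Without L1210_15, which had the fewest detected genes of the L1210 cells (1610), the Lta difference was 2.47 and that of Tnf -0.97 (limma adjusted p = 5.0e-07 and 0.066), with 64.6% of all genes called.

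Receptors for the products were read in the same cells. Of 15 receptor genes 12 were tested between the cell types, 8 were higher in CD8 and 3 lower, against 13.5% higher and 50.1% lower of all genes. All chains of the IL-2 receptor were higher in CD8, with log2 differences of 8.12 for Il2rb, 4.67 for Il2rg and 3.78 for Il2ra (limma adjusted p = 1.4e-39, 2.1e-21 and 1.6e-11). In CD8 cells Il2rg was above 0 in 97 cells (median 599 TPM), Il2rb in 95 (median 383 TPM) and Il2ra in 92 (median 59.7 TPM), while Il2 itself was in none.

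Ifngr1, the ligand-binding chain of the IFN-γ receptor, was higher by 2.85 and Ifngr2, its signalling chain, lower by a difference of -2.13. The TNF receptor Tnfrsf1a was read in 64 CD8 cells and listed at 0 in L1210, so that it counts among the 8 with its direction fixed by the filter. The GM-CSF receptor chains Csf2rb (-3.76) and Csf2rb2 (-1.09) were lower in CD8, where they reached no more than 1.19 and 1.57 TPM. Both entered the test through L1210 alone, so their direction too was fixed by the filter. Csf2ra, above 0 in 1 L1210 cell, entered through CD8 alone. Il2rb was above 0 in 9 of 81 L1210 cells and may have missed the filter there, in which case its direction was fixed as well. Of the 15 receptor genes 10 passed the filter in CD8 and 8 in L1210. Xcr1, the receptor of XCL1, was above 0 in 34 CD8 cells at no more than 9.75 TPM, and the chemokine receptors Ccr1 and Ccr3 in none.

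Within CD8 lineages, 2 of 10 tested receptor genes were closer among relatives, Il2ra (-42.8%, adjusted p = 0.0016) and Il2rg (-20.9%, adjusted p = 0.040), against 6.76% of all genes, with a list median of -15.1% against -7.77% for all genes. Il2ra, whose chain makes the receptor high in affinity, so had a larger percentage change than any of the 5 tested cytokines. One receptor gene, Il2rb, was positively related to Gzmb (rho 0.54, adjusted p = 0.038).

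Of 23 other cytokine genes, 10 could be tested within CD8 lineages and 3 were closer among relatives, against 6.76% of all genes. They were Ltb, the neighbour of Tnf (-31.4%, adjusted p = 0.0016), the migration inhibitory factor Mif (-40.8%, adjusted p = 0.0016) and Tnfsf11, which encodes RANKL (-27.5%, adjusted p = 0.027), and the list median was -23.0% against -7.77% for all genes. Ltb was read in 97 of 97 CD8 cells with a median of 677 TPM. Lta and Ltb, whose products join into the lymphotoxin heterotrimer, were both called closer among relatives on the ln(TPM+1) scale. As residuals on detected genes Lta was no longer called. Between the cell types 8 of 11 were called, 5 higher in CD8 (Ltb 5.59, the CD30 ligand Tnfsf8 2.29, and Tnfsf11, Fasl and Tnfsf14) and 3 lower (Spp1 -2.80, Tgfb1 -1.43, Tnfsf9 -1.19), against 13.5% and 50.1% of all genes. Tnfsf11 and the death ligand Fasl were listed at 0 in all L1210 cells and Tnfsf14 was above 0 in 1, so these 3 entered the test through CD8 and their direction was fixed by the filter. Spp1, above 0 in 5 of 97 CD8 cells, entered through L1210 alone, so its direction was fixed as well. Tnfsf11 was also related to Gzmb, with a rho of 0.61 (adjusted p = 0.015), above that of Lta.

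Of 16 other chemokine genes 2 could be tested within CD8 lineages, and neither was called. Ccl9 was higher in L1210, with a mean log2 level of 5.70 against 0.28 in CD8 (difference -5.42, limma adjusted p = 2.4e-33). In CD8 Ccl9 was above 0 in 20 cells, at no more than 13.8 TPM. It may have missed the filter there, in which case its direction was fixed. Ccl27a was listed at 0 in all L1210 cells and above 0 in 14 CD8 cells, so that its direction was fixed by the filter.

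Among 32 regulators of cytokine genes 27 were tested within CD8 lineages and 4 were closer among relatives, against 6.76% of all genes, with a list median of -13.7% against -7.77%. They were the T-box factors Tbx21 (-33.4%, adjusted p = 0.0028) and Eomes (-33.6%, adjusted p = 0.0042) and the interferon regulatory factors Irf8 (-31.4%, adjusted p = 0.0055) and Irf4 (-22.3%, adjusted p = 0.039). Both T-box factors, which act on Ifng and on effector genes, had a change close in size to that of Xcl1, and no NFAT, NF-kB or AP-1 gene of the list was called. With Gzmb 3 regulators were positively related, Irf8 (rho 0.75, p = 1e-05, the smallest the permutations can give, adjusted p = 0.0038), Bhlhe40, which promotes cytokine production (rho 0.58, adjusted p = 0.022), and Nr4a3 (rho 0.53, adjusted p = 0.041). Between the cell types 19 of 31 were called, 9 higher and 10 lower in CD8, against 63.6% of all genes called, 13.5% higher and 50.1% lower. Nfatc2 at 5.06, Stat4 at 4.39 and Ikzf3 at 3.75 were among the higher and Zeb2 at -3.85 and Irf8 at -2.38 among the lower. Tbx21 and Eomes, also among the higher, were above 0 in 0 and 1 L1210 cells, and Nfatc2 and Ikzf3 in 3 and 2. All of these entered the test through CD8 alone, so their direction was fixed by the filter. Stat4 was above 0 in only 10 of 81 L1210 cells and Zeb2 in 14 of 97 CD8 cells. Each may have missed the filter in that cell type, in which case its direction was fixed as well. Fos, Fosb and Egr2, above 0 in 8, 0 and 8 CD8 cells, entered through L1210 alone. Over the list 27 genes passed the filter in CD8 and 24 in L1210.

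Proteins that destroy or shield cytokine transcripts formed a list of 12, of which 11 were tested. Within CD8 lineages Zfp36, tristetraprolin, the decay factor of the Tnf transcript (-31.6%, adjusted p = 0.0016), and Elavl1, the stabilising protein HuR (-29.2%, adjusted p = 0.0042), were closer among relatives, against 6.76% of all genes, with a list median of -12.8%. Zc3h12a, the RNase Regnase-1, had a rho of 0.52 with Gzmb (adjusted p = 0.049). Between the cell types 7 of the 11 were lower in CD8, against 50.1% of all genes, among them Zc3h12a (-2.52), Rc3h2 (-1.98) and Zfp36 (-1.12), and Pdcd4 (2.07) was higher, with a list median of -1.09 against -0.59 for all genes.

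The genes that IFN-γ induces were read although Ifng was rare. Of 21 such genes 18 were tested between the cell types, 13 were higher in CD8 and 2 lower, against 13.5% and 50.1% of all genes, with a list median of 1.58 against -0.59 for all genes. Igtp (4.63), Gbp4 (4.30) and Irf1 (2.43) were among the higher, and Gbp3 (-2.62) was among the lower. All 18 passed the filter in CD8 but only 13 in L1210. Gbp2, Gbp4, Gbp5, Gbp6 and Iigp1 were above 0 in 7, 1, 3, 1 and 2 L1210 cells. They entered the test through CD8 alone, so their direction was fixed by the filter. Igtp was above 0 in 95 of 97 CD8 cells with a median of 171 TPM. Within CD8 lineages 5 of the 18 were closer among relatives, Socs1 (-32.2%), Gbp7 (-27.5%), Socs3 (-26.1%), Gbp3 (-25.9%) and Gbp4 (-23.3%), with adjusted p between 0.0016 and 0.047 and a list median of -11.7%, against 6.76% of all genes called. None of the 18 passed for Gzmb.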

How the data were processed

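The authors aligned the Smart-Seq2 reads of each library to UCSC mouse genes (mm10) and deposited TPM values estimated by RSEM 1.2.3, without read counts, so the depth per library is unknown. The submitters' processing notes also name TopHat2 and bcl2fastq. From the deposited TPM, 27 gene names turned into dates and 4 repeated rows were dropped, which left 23393 names. Doublets named in the labels and libraries under 1000 genes were left out. The methods state 1 L1210 cell fewer after the same filter, and their observation weights were not used here. Lineages were built from links that both cells name, and 4 cousin labels that were not returned were ignored.

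Values were used as ln(TPM+1), or log2(TPM+1) for limma 3.58.1 (R 4.3.3, eBayes with trend), with genes over 1 on the ln scale in more than 10% of cells. The other tests were permutations (Python 3.11.15, numpy 2.4.6, scipy 1.17.1) with 100000 resamples, checked on simulated data. A call is an adjusted p under 0.05 (Benjamini-Hochberg over all genes tested). Named genes were the members, Gzmb, the 3 genes most alike to each, and called genes of fixed lists, at most 8 a list by p. The members and lists were chosen with earlier results of these data known. The alternatives changed the pseudocount, filters, scaling, test or cells. Ribosomal Rn45s took 21.3% of the TPM in CD8 and 22.3% in L1210.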

Additional observations from a re-analysis of the deposited data

Results flagged for a closer look

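Libraries that entered no comparison held signal of 3 of the genes above the level of the comparison cells. Of the 9 CD8 libraries left out, 4 had Tnf above 0, the highest at 291 TPM in CD8_46, a library labelled as a doublet, against a highest value of 194 TPM in the kept L1210 cells. Xcl1 was above 0 in 2 of them, the higher at 118 TPM in the doublet CD8_43, whereas it was 0 in all kept L1210 cells. Kept CD8 cells themselves reached 282 TPM for Tnf and 511 TPM for Xcl1, so the left-out Xcl1 value lay inside the range of its own cell type. Ccl3 reached 1656 TPM in L1210_83, a library with 801 detected genes that fell under the minimum of 1000, against 341 TPM in the highest kept L1210 cell. Lta reached 170.04 TPM in a left-out CD8 library, below the highest L1210 cell. Ifng, Il2, Csf2, Ccl3, Ccl4 and Ccl5 were at 0 in the 9 left-out CD8 libraries.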

How the results depend on the processing

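No paired analysis was possible because the replicate numbers in the titles name single cells of different cell types. Over the alternative settings, of which the L1210 tests and those without the 2 lineages farthest in hours were added after seeing the data, the number of cytokines closer among CD8 relatives was 2 as reported, 1 with residuals on detected genes, with sign flips, with the filter at 50% of cells or with at least 4000 genes per cell, 0 with detection only, and 3 with the Mann-Whitney U-test or a pseudocount of 10 TPM, and it ran from 1 to 3 when single lineages were left out. Lta changed by 30.2% with detection only, where Xcl1 changed by -31.9%, and Xcl1 by -26.6% with at least 4000 genes. The genes called were 675 as reported, 216 with sign flips and 80 with detection only. Leaving out lineages gave -35.2 to -27.6% for Lta, -34.3 to -23.8% for Xcl1, -24.4 to -17.9% for Tnf and -16.3 to 6.49% for Ccl4. Between the cell types 1 cytokine, Lta, was called with the 50% filter, where Xcl1, Ccl4 and Ccl5 were not tested, in place of 4, and Ccl4 had an adjusted p of 0.096 by limma in cells at 2 to 7 h. With Gzmb 1 cytokine was called without the filter and 0 to 2 when single lineages were left out, Lta ranging from 0.42 to 0.56 and Tnf from 0.40 to 0.52. The genes called with Gzmb were 448 as reported, 126 with residuals, 285 without the 2 farthest lineages and 289 without the filter. Ccl5 and Xcl1 had a rho of -0.067 and -0.078 with residuals, and Xcl1 an r of -0.0078 without the 2 farthest lineages. With time since division 0 genes were called as reported, 3 with at least 4000 genes per cell, 4 with residuals and 16 by Pearson, none of them a cytokine of the 9. Ccl4 changed sign to 0.098 with residuals, 0.058 by Pearson, 0.049 and 0.16 by Spearman and Pearson without the 2 lineages farthest in hours, and 0.020 with a pseudocount of 10 TPM, Lta to -0.018 by Pearson, and leaving out lineages gave -0.13 to 0.076 for Ccl4 and -0.17 to 0.011 for Ccl5. The sister and cousin difference of Lta was 0.015 with at least 4000 genes per cell, and the genes called in that comparison fell from 2 to 0 in 4 alternatives. The cause of these changes was not tested. TPM without counts give no depth, so a value of 0 limits detection only.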

Other observations

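Some genes near the cytokines in function were outside the comparisons above. Among the T-cell markers Cd8a (-55.8%) and Cd8b1 (-61.2%), the chains of the CD8 co-receptor, were closer among CD8 relatives, with an adjusted p of 0.0016 each by permutation, and Thy1 (-22.8%, adjusted p = 0.029) was the third of the 9 tested. Of 7 tested cytotoxic granule genes Lamp1 (-34.2%, adjusted p = 0.0028) was called beside Gzmb, while Prf1, which encodes perforin, was above 0 in 10 of 97 CD8 cells and Gzma in 9. Nkg7, a granule membrane protein, was read in all 97, with a median of 809 TPM.

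The chemokine Ccl1 was read in 3 CD8 cells, the highest at 543 TPM, and Il24 in 11 cells, the highest at 223 TPM. In L1210 lineages the genes of the lists that were closer among relatives included Spp1, which encodes osteopontin (-32.3%, adjusted p = 0.024), the receptor chain Csf2rb (-34.4%, adjusted p = 0.0078), Il2ra (-32.8%, adjusted p = 0.013) and Zfp36 (-31.5%, adjusted p = 0.0038), all by permutation. Il2ra and Zfp36 were called in both cell types, and the difference between the cell types was not tested. Ccl1, Il24, Prf1, Gzma and Nkg7 were named after their values were seen.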
